A study of Homo sapiens with 6 samples.

Results

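The baseline transcriptome of control 22Rv1 cells was described from the 2 control libraries of a series of 6, the other libraries being 2 each of the knockdowns labelled ZM11-kd1 and ZM11-kd2. 22Rv1, a human prostate carcinoma line grown as a monolayer, was derived from a relapsed xenograft and grows without added androgen. The control cells were labelled as wild type and untreated and were kept in RPMI1640 with 10% fetal bovine serum, whereas the study describes the 22Rv1 cells of its RNA sequencing as stable lines with an shRNA against ZMYND11 or a control shRNA. The labels mention no vector. Levels were taken from both control columns of the count table. The knockdown columns served only to check the labels by the targeted gene and to find symbols with equal counts. The labels do not say that the 2 libraries came from separate cultures, so the spread between them may be technical. The libraries held 26844128 and 27639713 counts over 35322 gene symbols.

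Levels are given as counts-per-million (CPM), a gene's count divided by the library total on that scale, first for control replicate 1 and then for replicate 2. A gene was called on at 1 CPM or more in both libraries, at the floor with 3 counts or fewer in both, and low otherwise. At these depths 3 counts corresponded to 0.112 and 0.109 CPM. CPM is not scaled by gene length, so an order in CPM is an order of counts held. The levels of genes were compared on a per-length scale, as transcripts-per-million (TPM), in which each count was divided by the length of the gene's annotated exons, and TPM values are means ± SD of the 2 libraries. ZMYND11, the targeted gene, stood at 160 and 151 CPM in the control libraries and between 21.4 and 24.6 CPM in the 4 knockdown libraries, in the direction of the labels.

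Of all symbols, 13795 were on (39.1%), and 17095 were at the floor, of which 13627 had no count in either library. Among 19250 protein-coding genes, 12715 were on (66.1%) and 4021 were at the floor (20.9%). These shares are the background for every gene list described here. Long noncoding RNAs were on in 650 of 3940 cases and pseudogenes in 317 of 8915. Of the genes on, 7766 had a mean between 10 and 100 CPM, 2237 between 100 and 1000 CPM, and 66 had 1000 CPM or more.

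The 2 libraries differed little. Over the genes on, the log2 CPM values of the 2 libraries correlated across genes with a Pearson r of 0.997, although genes are not independent replicates. Among genes of 10 to 100 CPM, the median fold between libraries was 1.05, and 12 of the 13795 genes on differed by 2-fold or more. A two-sided exact binomial test of each gene's 2 counts, which covers counting error only and compares these libraries rather than conditions, called 556 of 16904 genes at an adjusted p under 0.05 (Benjamini-Hochberg, 3.29%). Of these, 312 were higher in replicate 1 and 244 in replicate 2, and 93 differed by 1.5-fold or more. Of 66 genes at 1000 CPM or more, 34 were called, and the median fold between libraries in this group was 1.02. Ribosomal protein genes were higher in replicate 2 in 78 of 84 cases, by a median ratio of 1.03, against 6335 of 13795 genes on. Among genes on with 100 counts or more in each library, the 5 widest gaps in each direction included DNAH6, an axonemal dynein, at 14.5 and 9.23 CPM (exact binomial test, adjusted p = 1.18e-05), and SELENOH, a selenoprotein, at 8.34 and 5.25 CPM (exact binomial test, adjusted p = 0.00221). In the other direction SLC25A5-AS1 stood at 3.76 and 6.01 CPM (exact binomial test, adjusted p = 0.0143), and CNKSR2, a scaffold of RAS signalling, at 11.2 and 16.8 CPM (exact binomial test, adjusted p = 2.43e-05). ACRBP, FNDC10 and MNX1 were also higher in replicate 1, and FUOM, ZNF433 and EFNA2 in replicate 2.

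How the reads of overlapping genes were counted is not given in the sources used here, and this touches some genes described here. Protein-coding genes whose main transcript shares no exon bases with another gene on the same strand were at the floor in 20.7% of 16877 cases, whereas those that share 80% or more were at the floor in 49.2% of 427 cases. Gene pairs such as MCL1 and ADAMTSL4-AS1 held the same counts, 13211 and 13534 in the 2 libraries, and 136 of 13082 genes with 100 counts or more over both controls shared their counts with a further symbol across the 6 libraries. Where a named gene shares 50% or more of its exon bases, that share is given beside its value, and its part in the value was not tested. The share was not computed for mitochondrial genes or for symbols without a GENCODE match.

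A large part of the RNA encoded the respiratory chain and the translation machinery. Mitochondria carry their own small genome, which encodes core subunits of the respiratory complexes, and its 13 protein-coding genes took 8.73% and 8.87% of all counts. COX1, the catalytic subunit of cytochrome c oxidase, held the most counts in the table, at 28201 and 28211 CPM. COX2 followed at 12138 and 12474 CPM and COX3 at 11575 and 11939 CPM, and the fewest of the 13 were held by ATP8 at 60.6 and 64.5 CPM. ATP8 is only 207 bases long and had 1043 ± 38.1 TPM, and exon sharing was not computed for the 13 genes. ND6, which is encoded on the opposite strand of the mitochondrial genome, reached 894 and 956 CPM. Of the 10 genes highest in mean CPM, 8 were mitochondrial, the others being EEF1A1 and SLC7A5. These 10 genes held 9.43% and 9.54% of the counts, the top 100 held 21.1% and 21.4%, and 1072 genes were needed to reach 50%.

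Among nuclear genes, ribosomal proteins held the most counts of the families examined, with 84 of 88 genes on and 5.98% and 6.19% of the counts. RPS2 of the small subunit stood at 2676 and 2700 CPM, RPLP0 of the stalk at 2494 and 2589 CPM, and RPL3 of the large subunit at 2419 and 2450 CPM. EEF1A1, which brings aminoacyl-tRNA to the ribosome, had 9548 and 9735 CPM, and EEF2, which drives translocation, had 2634 and 2594 CPM. Solute carriers, the membrane transporters of small molecules, held 1.89% and 1.86% of the counts with 225 of 342 genes on. Nuclear genes of the respiratory chain and ATP synthase held 1.05% and 1.08%, heat shock proteins and DNAJ cochaperones 1.17% and 1.19%, and hnRNPs, which package and splice nascent transcripts, 1.06% and 1.07%. Histones held 0.365% and 0.366% of the counts with 26 of 90 genes on. Per length, as a share of TPM, hnRNPs at 0.532% and histones at 0.491% lay close together.

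Per length, the nuclear gene with the highest level was TMSB10, a thymosin that binds actin monomers, at 12090 ± 325 TPM. It was followed by S100P, a small calcium-binding protein, at 5801 ± 224 TPM, and by RPS2 at 3884 ± 6.27 TPM, RPL41 at 3698 ± 69.2 TPM and EEF1A1 at 3306 ± 18.96 TPM. TMSB10 stayed ahead of these 4 genes with the longest and with the canonical transcript as gene length. S100P did not keep its place with either. With the longest transcript it had 4439 TPM, below RPS2 at 4586, RPL41 at 4638 and EEF1A1 at 4962 TPM. With the canonical transcript it had 3595 TPM, below RPL41 at 3756, RPL7A at 3821, EEF1A1 at 5872 and RPS2 at 6083 TPM. SLC7A5, the transporter of large neutral amino acids, had 3494 and 3352 CPM and 2480 ± 92.3 TPM. CCND1, the cyclin that starts the cell cycle with CDK4 and CDK6, had 3442 and 3392 CPM and 2477 ± 44.9 TPM. On this scale both lay near RPL7A, a ribosomal protein at 2444 ± 45.4 TPM, but with the canonical transcript SLC7A5 and CCND1 came to 1607 and 1725 TPM against 3821 TPM for RPL7A. The other genes among the 20 with the highest CPM were ATP6, CYTB and the ND1, ND2, ND4 and ND5 subunits of the mitochondrial genome, TMBIM6, PPIA, ALDH3A2 and ACTG1.

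The start sites of ribosomal protein genes and of some other abundant genes held a sequence feature that the counts did not use. Many transcripts of the translation machinery begin with a C followed by a run of C and T, known as a 5′ terminal oligopyrimidine motif, through which growth signals control their translation. RefSeq promoter sequences (GRCh38.p14, from 250 bases before to 50 after each annotated start) were matched to 15153 of the 19250 protein-coding genes. A C at the annotated start, followed on the sense strand by 4 or more bases that are all C or T, occurred in 45 of 70 ribosomal protein genes (64.3%), against 4.67% of all matched promoters. By level, it occurred in 3% of genes at the floor, 4.52% of genes on with 10 to 100 CPM, 8.67% of those with 100 to 1000 CPM and 34.1% of the 41 with 1000 CPM or more. Without ribosomal proteins, 5 of 27 genes in that last group had it (18.5%). Starts of 5 genes are shown, chosen among those with such a run for their high CPM (EEF1A1, EEF2 and RPLP0) or high TPM (RPL41 and RPS12), each as 25 bases in the sense direction with the run from the annotated start in capitals.
EEF1A1, chr6:73521018-73521042, minus strand: cgtgaacgttCTTTTTCgcaacggg
EEF2, chr19:3985449-3985473, minus strand: cgtcagcgttCTCTTCCgccgtcgt
RPLP0, chr12:120201097-120201121, minus strand: ggcgcgaggcCCTTCTCTCgccagg
RPL41, chr12:56116623-56116647, plus strand: cttcgcctttCTCTCggccttagcg
RPS12, chr6:132814559-132814583, plus strand: cggatgaggcCTCTTTCCCTgccgc

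The promoters of genes on and of genes at the floor also differed in base composition. The median promoter of a gene on held 26 CG dinucleotides in 300 bases and 65.3% G and C, whereas that of a gene at the floor held 5 and 52%. The letters TATAAA within 35 to 15 bases before the start, on the sense strand, occurred in 1.6% of promoters of genes on, 9.39% of those at the floor and 3.66% of all. They occurred in 15 of 34 keratin promoters and in 4 of the 41 promoters of genes at 1000 CPM or more. S100P and RPLP0 both held TATAAA, which is in capitals in the windows given here.
S100P, chr4:6693841-6693865, plus strand: aggctgcctTATAAAgcaccaagag
RPLP0, chr12:120201123-120201147, minus strand: tgttcgcatTATAAAaggcacgcgc
The androgen response element is built of 2 copies of the hexamer AGAACA or close variants. AGAACA or its reverse complement TGTTCT occurred in 4 of 24 matched promoters of the androgen-responsive list (16.7%), against 11% of all promoters. KLK3 held it 170 bases before its start, in the window printed below with the hexamer in capitals.
KLK3, chr19:50854739-50854763, plus strand: aattgcAGAACAgcaagtgctagct

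Prostate secretory epithelium has a luminal layer that makes kallikreins and depends on androgen, and a basal layer marked by TP63 and KRT5. Of 37 luminal genes, 28 were on (75.7%, against 66.1% of protein-coding genes), with a median of 79.7 CPM over the list. The 3 marker genes of the line were all on. KLK3, which encodes prostate-specific antigen, stood at 46.0 and 44.03 CPM. FOXA1, a pioneer factor that opens chromatin, stood at 528 and 524 CPM, and HOXB13, the prostate homeobox factor, at 233 and 229 CPM. The markers that go with the labelled cell line were thus all present.

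Among the lineage transcription factors, 7 of 8 were on. Per length, FOXA1 at 411 ± 5.36 TPM exceeded HOXB13 at 262 ± 4.88 TPM, an order that held with both other choices of gene length. SPDEF, GATA2 and GRHL2 had 178 ± 6.502, 79.3 ± 2.30 and 67.3 ± 1.85 TPM. ERG, an ETS factor that many prostate cancers express from a TMPRSS2 fusion, was low, at 0.261 and 0.181 CPM.

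The secreted and membrane products of luminal cells were uneven. Among the kallikreins, KLK4 had 193 and 186 CPM, KLK2 had 108 and 103 CPM, and per length KLK4 at 327 ± 11.0 TPM exceeded KLK2 at 57.3 ± 2.15 TPM and KLK3 at 33.5 ± 1.31 TPM. This order also held with both other gene lengths. AZGP1, a secreted glycoprotein, had 86.8 and 88.6 CPM, and ACP3, prostatic acid phosphatase, 16.4 and 13.5 CPM. MSMB, a major protein of seminal fluid, was on at only 1.34 and 1.27 CPM, and the transglutaminase TGM4 and PLA2G2A were at the floor. At the membrane, STEAP1 had 240 and 239 CPM, STEAP2 had 411 and 402 CPM, and FOLH1, prostate-specific membrane antigen, 578 and 605 CPM. Per length, STEAP1 at 534 ± 5.77 TPM stood above FOLH1 at 382 ± 9.19 TPM and STEAP2 at 161 ± 3.82 TPM. TMPRSS2, a serine protease, had 55.9 and 55.4 CPM, HPN, hepsin, 34.5 and 38.2 CPM, and SLC45A3, prostein, 114.9 and 115.99 CPM. TRPM8, the cold channel, was at the floor, and PSCA was low, at 0.112 and 0.326 CPM. AMACR, a racemase used as a tissue marker of prostate cancer, was low at 0.596 and 0.796 CPM, and 75.4% of its exon bases are shared with another gene. Of the prostate noncoding RNAs, DRAIC was at 16.1 and 13.2 CPM and PCA3 at 1.64 and 1.56 CPM, while PCGEM1 was at the floor.

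**Figure D1:**
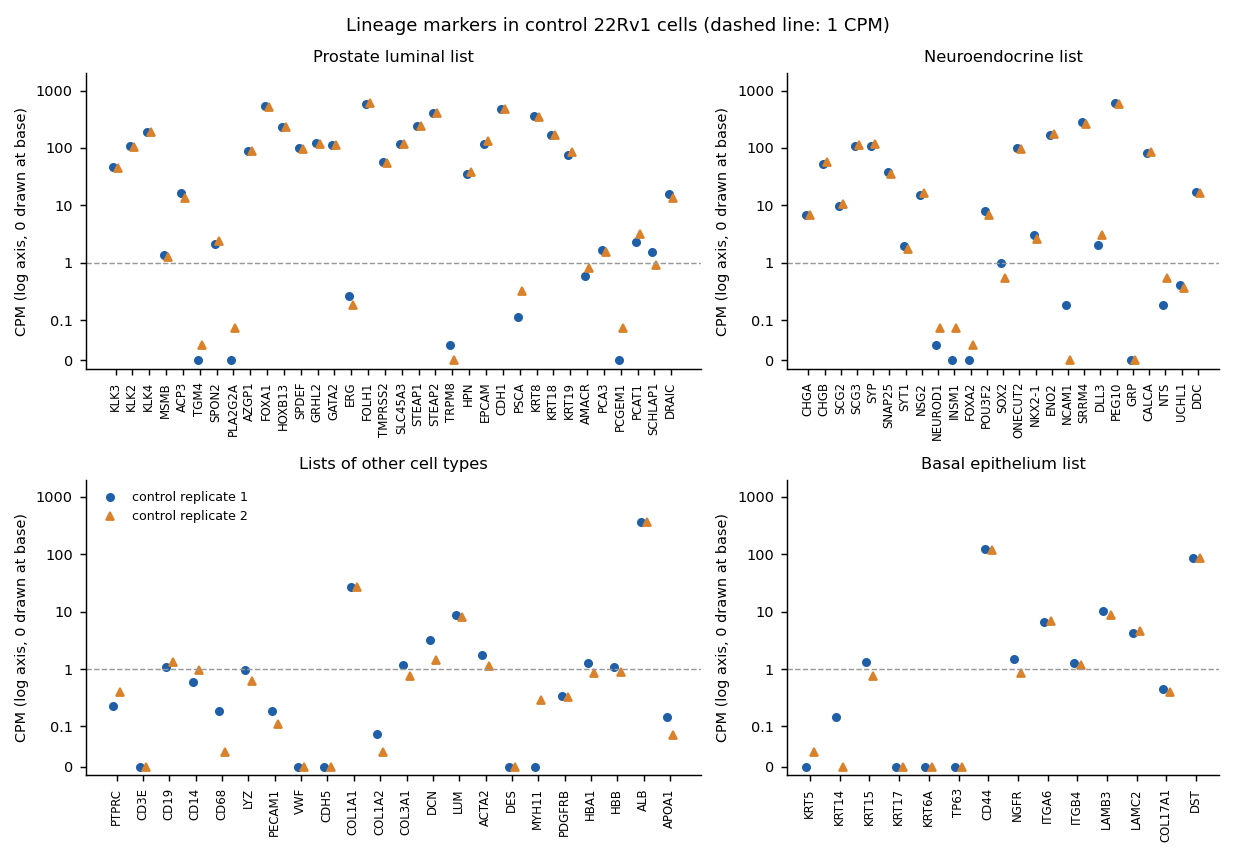
Level (y axis, CPM on a log axis, with 0 drawn at the base) of marker genes (x axis) in 4 lineage lists. Circles and triangles are control replicates 1 and 2, and the dashed line marks 1 CPM. Heights show which genes were on in these cells and are not scaled by gene length, and most luminal genes lie above the line while TP63 and the basal keratins lie at or near 0.

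Basal markers split by kind. TP63, KRT17 and KRT6A had no count in either library, KRT5 had 0 and 0.0362 CPM, and KRT14 and KRT15 were low. Adhesion genes that basal cells share with other epithelia were present, with CD44 at 125 and 120 CPM, DST, a cytoskeletal linker, at 85.9 and 87.2 CPM, and LAMB3, a laminin chain, at 10.4 and 8.83 CPM. In all, 6 of 14 basal genes were on.

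Neuroendocrine genes were on in 17 of 26 cases (65.4%), close to the background of 66.1%. Neuroendocrine cells store peptides in dense granules, and prostate cancers under androgen blockade can take up parts of this program. All 8 granule and vesicle genes were on. SCG3, a granule protein, had 110 and 110 CPM, SYP, synaptophysin, 108 and 115 CPM, CHGB 52.7 and 56.3 CPM, and CHGA, chromogranin A, 6.74 and 6.91 CPM. Per length SCG3, SYP, CHGB and CHGA had 120 ± 0.491, 55.2 ± 2.12, 42.3 ± 1.65 and 7.79 ± 0.0735 TPM, but with the canonical transcript SYP at 98.5 TPM exceeded SCG3 at 74.6 TPM. By contrast, the factors NEUROD1, INSM1 and FOXA2 were at the floor, while ONECUT2 had 99.8 and 97.6 CPM and POU3F2 7.82 and 6.80 CPM. SRRM4, which drives neural exon use, was on at 281 and 266 CPM, and PEG10, a gene of retrotransposon origin, at 602 and 579 CPM. CALCA, the gene of calcitonin and its related peptide, had 80.4 and 83.2 CPM, and ENO2, neuron-specific enolase, 169 and 173 CPM. NCAM1 was low, at 0.186 and 0 CPM, and GRP was at the floor.

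Of 22 markers of other cells, 6 were on, 11 were low and 5 were at the floor. The T cell gene CD3E, the endothelial genes VWF and CDH5 and the muscle gene DES had no count in either library, and PTPRC of leukocytes had 0.224 and 0.398 CPM. COL1A1, a collagen chain of fibroblasts, was on at 27.1 and 26.7 CPM, while its partner chain COL1A2 was at the floor, at 0.0745 and 0.0362 CPM. LUM, lumican, had 8.79 and 7.996 CPM. ALB, serum albumin, reached 367 and 372 CPM, whereas the hemoglobin genes HBA1 and HBB were low, at 1.27 and 0.868 CPM and 1.08 and 0.905 CPM. The number of list members on moved from 6 to 11 at a threshold of 0.5 CPM and to 3 at 2 CPM.

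Nuclear receptors are transcription factors, many of which a ligand switches on, and those of steroids are held by chaperones until then, after which coactivators and corepressors set their output. Of 48 nuclear receptors, 36 were on (75%, against 66.1% of protein-coding genes). In the steroid class 4 of 6 were on and 2 were low, and outside it 32 of 42 were on. ESRRA, an orphan receptor of energy metabolism, had 107 and 106 CPM, NR2C2 173 and 160 CPM, NR2C1 101.3 and 98.2 CPM and the clock repressor NR1D2 89.0 and 85.6 CPM. PPARG, the receptor of fat cells, was low at 0.149 and 0.0362 CPM, and RXRG, NR2E1, ESRRB, NR5A1, NR0B1 and NR0B2 were at the floor.

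All 24 coregulators and chaperones were on, against 66.1% of protein-coding genes, with a median of 136 CPM. The chaperone HSP90AB1 had 1297 and 1335 CPM, HSPA8 1087 and 1101 CPM, and the cochaperone PTGES3 437 and 438 CPM. Among corepressors, NCOR1 had 220 and 204 CPM, while TLE1 was at 5.63 and 5.28 CPM. Among coactivators, NCOA4 had 215 and 220 CPM, NCOA2 104 and 108 CPM, NCOA3 45.2 and 42.1 CPM and NCOA1 41.5 and 35.6 CPM. Of 30 genes that androgen induces in prostate cells, 25 were on (83.3%, against 66.1% of protein-coding genes). ZBTB10, a zinc finger repressor, had 1095 and 1074 CPM, PMEPA1, an inhibitor of TGF-beta signalling, 640 and 635 CPM, FKBP5, a cochaperone of steroid receptors, 429 and 427 CPM, and ELL2, an elongation factor, 322 and 315 CPM. TRPM8 and ORM1 were at the floor, as was HERC3, which shares 95.8% of its exon bases with another gene.

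Of 19 genes of androgen synthesis, 10 were on (52.6%) and 7 were at the floor. CYP11A1, HSD3B1 and SRD5A2 had no count in either library. CYP17A1, which makes androgen precursors, had 0.0745 and 0 CPM. The symbol CYP17A1-AS1, annotated as its antisense RNA, stood at 58.4 and 53.9 CPM. Exon sharing was not computed for CYP17A1-AS1, and the strand setting of the counting is not given. HSD3B2 and SULT2A1 were also at the floor, and so was HSD17B3, of whose exon bases 97.8% are shared. AKR1C3, which reduces androstenedione to testosterone, was on at 59.7 and 60.6 CPM, the reductase SRD5A1 at 47.9 and 41.9 CPM and SRD5A3 at 17.1 and 16.6 CPM. CYB5A and POR, which pass electrons to P450 enzymes, had 63.1 and 59.8 CPM and 112 and 119 CPM. On the side of inactivation, HSD17B4 had 211 and 209 CPM, HSD17B11 92.7 and 93.2 CPM and the glucuronosyltransferase UGT2B15 48.1 and 46.2 CPM. Its paralog UGT2B17 had 1.34 and 1.63 CPM, and since both genes are near-identical, the split of reads between them is uncertain. CYP19A1, CYP11B1, CYP11B2, CYP21A2 and HSD11B1, which make oestrogens and corticosteroids, were all at the floor, and HSD11B2, which inactivates cortisol, was on at 14.4 and 14.1 CPM. In all, 20 of 39 genes of steroid metabolism were on (51.3%, against 66.1% of protein-coding genes).

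HOX genes lie in 4 clusters and record the position of a cell along the body axis. Clusters A, B and C were on in 9 of 11, 8 of 10 and 8 of 9 genes, while none of the 9 genes of cluster D was on. HOXB13 exceeded all others per length, at 262 ± 4.88 TPM. HOXA5 came next at 43.1 ± 1.34 TPM, then HOXB7 at 38.1 ± 4.39 TPM, HOXC10 at 35.04 ± 3.12 TPM and HOXC12 at 34.8 ± 0.583 TPM. HOXB7, HOXC10 and HOXC12 did not differ beyond the spread between the libraries. With the canonical transcript HOXB13 at 163 TPM still exceeded HOXA5 at 27.5 TPM. The order of HOXA5, HOXB7, HOXC10 and HOXC12 is given for the main gene length only. HOXA13, at the end of cluster A, had 8.53 and 9.55 CPM, HOXC13 11.9 and 12.5 CPM, and HOXD13, at the end of cluster D, 0.745 and 0.651 CPM. HOXD1, HOXD10 and HOXD11 had no count, HOXD3 and HOXD12 had 1 count each over both libraries, and HOXD4, HOXD8 and HOXD9 were low. At 0.5 CPM in place of 1, HOXD13 was the 1 gene of cluster D that passed. HOXB1 and HOXC5 had no count, and 67.3% of the exon bases of HOXC5 are shared. HOXA4 and HOXB2 were low.

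**Figure D2:**
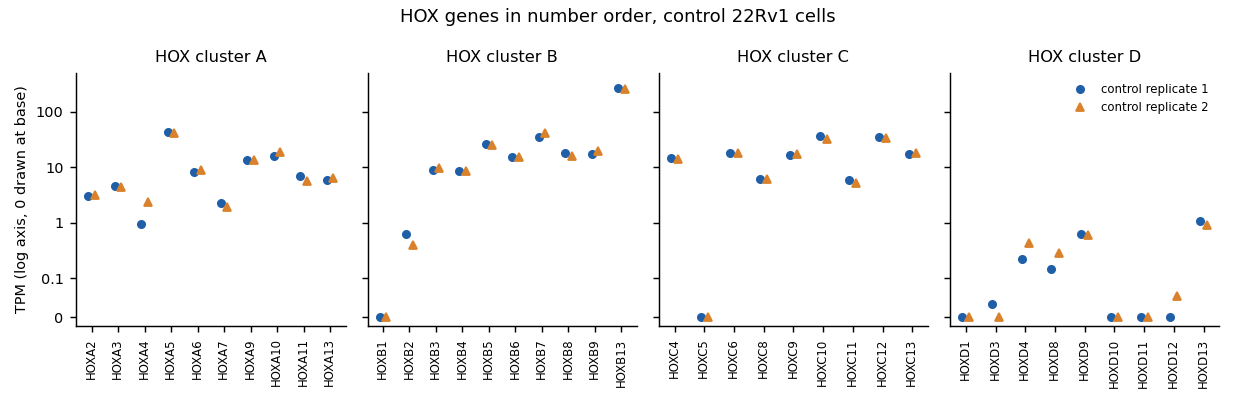
Level (y axis, TPM on a log axis, with 0 drawn at the base) of the HOX genes in number order (x axis), 1 panel for each cluster. Circles and triangles are control replicates 1 and 2. HOXB13 stands above every other HOX gene, and all genes of cluster D lie near or below 1 TPM.

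Keratins, which form the intermediate filaments of epithelia as pairs of type I and type II chains, were on in 5 of 55 genes, and 46 were at the floor. The pair of simple epithelia was on, with KRT8 at 360 and 351 CPM and KRT18 at 168 and 169 CPM, or 178 ± 4.55 and 190 ± 1.07 TPM. With the canonical transcript as length, KRT8 at 426 TPM exceeded KRT18 at 255 TPM, so their order depends on the length. KRT19 had 75.9 and 83.4 CPM, KRT10 18.1 and 15.4 CPM and KRT7 3.91 and 4.52 CPM. The low genes were KRT14, KRT15, KRT75 and KRT80. Of 18 further epithelial genes, 17 were on, among them the junction protein CDH1 at 472 and 478 CPM, CLDN7 at 272 and 278 CPM and the splicing factor ESRP1 at 258 and 267 CPM, whereas RAB25 was low at 0.224 and 0.217 CPM. Mesenchymal genes were on in 7 of 15 cases. FN1, fibronectin, had 44.2 and 44.9 CPM, CDH2 19.3 and 19.2 CPM, TWIST1 16.1 and 18.5 CPM and VIM 6.52 and 6.95 CPM, while ZEB1, ZEB2, SNAI1 and SNAI2 were low and TWIST2 and MMP2 were at the floor.

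Glycolysis turns glucose into pyruvate in a chain of steps, most of which have several isozymes used by different tissues. Of 43 genes, 31 were on (72.1%, against 66.1% of protein-coding genes). The pyruvate kinase gene PKM had 665 and 675 CPM, whereas PKLR, the liver form, had no count. The count of PKM does not separate its spliced isoforms PKM1 and PKM2, which the study followed. Lactate dehydrogenase A, LDHA, had 369 and 370 CPM, and LDHB 4.28 and 4.81 CPM, although 76.5% of the exon bases of LDHB are shared with another gene. LDHC was at the floor. Both hexokinases HK1 and HK2 were on, at 161 and 170 CPM and 120 and 118 CPM. The phosphofructokinases PFKM, PFKL and PFKP had 108 ± 1.36, 56.1 ± 0.459 and 4.48 ± 0.370 TPM. ENO1 exceeded ENO2 and ENO3, at 435 ± 6.84, 138 ± 1.22 and 26.8 ± 0.496 TPM.

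GAPDH, at 1366 and 1400 CPM, and TPI1, at 1113 and 1152 CPM, stood highest of the pathway's enzymes per length, with 1992 ± 18.2 and 1448 ± 24.3 TPM. PGK1 had 308 and 318 CPM and GPI 199 and 200 CPM. PGAM1 had 185 and 190 CPM and the muscle form PGAM2 none. ALDOC was on at 23.3 and 22.1 CPM. ALDOA, the aldolase of most tissues, had only 2.50 and 2.06 CPM, but 89.8% of its exon bases are shared with another gene. Of the glucose carriers, SLC2A1 had 51.1 and 48.3 CPM, SLC2A12 13.3 and 12.7 CPM and SLC2A4 1.86 and 1.37 CPM, SLC2A3 was low and SLC2A2 had no count. The lactate carriers SLC16A1, SLC16A7 and SLC16A3 were on at 30.0 and 30.2 CPM, 23.8 and 20.6 CPM and 14.6 and 14.7 CPM. On the reverse path to glucose, the mitochondrial PCK2 had 138 and 137 CPM, while PCK1, FBP1 and G6PC1 were at the floor.

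Genes of the mitochondria and of lipid synthesis were on in 87 of 93 cases (93.5%, against 66.1% of protein-coding genes), with a median of 121 CPM. All 22 genes listed for the citrate cycle and related enzymes were on. Citrate synthase CS stood at 425 and 410 CPM and MDH2 at 362 and 363 CPM. IDH1, a cytosolic enzyme outside the mitochondrial cycle, stood at 446 and 449 CPM. The fewest counts of the cycle were held by SDHA, at 4.77 and 4.09 CPM, with 69.4% of its exon bases shared, whereas the other complex II subunits SDHB, SDHC and SDHD had 93.6 and 97.2 CPM, 189 and 204 CPM and 84.6 and 93.6 CPM. Fatty acid synthesis was on in 12 of 13 genes. SCD, the desaturase, had 1394 and 1361 CPM, FASN, fatty acid synthase, 595 and 560 CPM and ACLY, which makes cytosolic acetyl-CoA from citrate, 326 and 330 CPM, while SCD5 was low. In cholesterol synthesis 16 of 17 genes were on, with SREBF2, its master factor, at 494 and 471 CPM, and FDFT1, squalene synthase, at 383 and 379 CPM. SOAT2 had no count, while its paralog SOAT1 had 152 and 146 CPM.

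Genes of glutamine and amino acid metabolism were on in 16 of 18 cases. Among those of serine and one-carbon metabolism, PSAT1 stood at 600 and 615 CPM, SHMT2 at 589 and 599 CPM, PHGDH at 386 and 390 CPM and MTHFD2 at 367 and 376 CPM. In fatty acid oxidation, ACADVL had 559 and 568 CPM, HADHA 305 and 306 CPM and CPT1A 199 and 196 CPM, against CPT1B with 2.05 and 2.21 CPM, of whose exon bases 98.1% are shared. Prostate is rich in polyamines, and AMD1 and ODC1, the decarboxylases of their synthesis, had 793 and 779 CPM and 363 and 379 CPM.

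Prostate epithelium also accumulates zinc. Of 14 importers, 11 were on. SLC39A6 was the highest per length, at 450 ± 5.63 TPM and 474 and 487 CPM, with both other gene lengths as well. SLC39A14 had 254 and 253 CPM and SLC39A7 139 and 137 CPM. SLC39A1, described as the main importer of prostate cells, was on at only 1.15 and 1.74 CPM, but 95.9% of its exon bases are shared. SLC39A2 was low and SLC39A12 had no count. Of 10 exporters 7 were on, among them SLC30A9 at 164 and 165 CPM, whereas SLC30A2, SLC30A3 and SLC30A8 were low. Among the metallothioneins, small proteins that bind zinc and share much sequence, MT2A had 42.2 and 45.0 CPM, MT1E 14.5 and 14.3 CPM and MT1G 8.49 and 8.03 CPM, while MT1A, MT1B and MT4 had no count.

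Receptor tyrosine kinases were on in 36 of 58 genes (62.1%) and their ligands in 21 of 40 (52.5%), against 66.1% of protein-coding genes. All 4 ERBB receptors were on, and per length ERBB3 at 77.3 ± 1.94 TPM exceeded ERBB2 at 38.9 ± 2.09 TPM, EGFR at 20.8 ± 0.972 TPM and ERBB4 at 5.45 ± 0.424 TPM, an order that held with both other gene lengths. The ephrin receptor EPHA3 had 192 and 181 CPM, EPHB4 132 and 130 CPM, the collagen receptor DDR1 191 and 188 CPM and FGFR3 97.9 and 94.4 CPM. INSR and IGF1R, the receptors of insulin and its growth factors, had 65.8 and 59.0 CPM and 52.9 and 53.0 CPM. FLT3, KDR, NTRK3, ROR2, RET, MUSK, AXL, TIE1, EPHB6 and ROS1 were at the floor, and FGFR2, PDGFRA, PDGFRB and ALK were low. Among the ligands, HGF, usually a product of stromal cells, stood at 343 and 348 CPM, with its receptor MET at 39.9 and 34.6 CPM. VEGFA had 314 and 308 CPM and EFNA1 109 and 104 CPM. For the ERBB family, AREG, BTC and TGFA were on at 12.6 and 12.3 CPM, 10.9 and 10.9 CPM and 4.84 and 5.54 CPM, whereas EGF, EREG and NRG1 were low. IGF2, FGF1, FGF19 and PDGFD were at the floor.

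Of 135 genes of growth signalling, 108 were on (80%, against 66.1% of protein-coding genes). All 18 genes of the RAS, RAF and ERK cascade were on, with the feedback phosphatase DUSP4 at 89.0 and 84.3 CPM. In the PI3K path 15 of 19 genes were on. The kinases AKT2 and AKT1 had 213 and 214 CPM and 131 and 129 CPM, while PIK3CG was at the floor. PIK3R2 was low at 0.261 and 0.181 CPM, with 99.0% of its exon bases shared. In the WNT path, CTNNB1, beta-catenin, had 414 and 412 CPM, the receptor FZD6 122 and 122 CPM, and the feedback target AXIN2 3.09 and 2.32 CPM, and 26 of 35 genes were on. NOTCH1, NOTCH2 and NOTCH3 were on and NOTCH4 was at the floor, with the ligand JAG2 at 63.4 and 58.7 CPM and JAG1 low at 0.484 and 0.470 CPM. The Hedgehog receptor PTCH1 had 114 and 113 CPM, while SMO was low at 1.30 and 0.977 CPM. For TGF-beta and BMP, 20 of 22 genes were on, including the targets ID2 at 333 and 341 CPM and ID1 at 270 and 269 CPM and the cytokine GDF15 at 573 and 569 CPM, and BMP7 was at the floor. JAK, STAT and NF-kappaB genes were on in 16 of 19 cases, with STAT5B at 81.8 and 79.9 CPM and STAT3 at 79.3 and 82.5 CPM, while the cytokines IL6 and CXCL8 were at the floor.

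All 23 tumour suppressors of the list were on, against 66.1% of protein-coding genes. ARID1A, a chromatin remodeller, had 391 and 386 CPM, CDKN1B 326 and 317 CPM, CDKN1A 236 and 231 CPM, RB1 85.0 and 88.8 CPM and CDKN2A 30.1 and 34.4 CPM. A level says nothing of whether the product is intact. Of 15 oncogenes 14 were on. CCND1 dominated the D cyclins at 2477 ± 44.9 TPM, against 16.3 ± 0.0926 TPM for CCND3, while CCND2 was low at 0.298 and 0.253 CPM. MYC had 149 and 148 CPM, MYCL 13.2 and 11.0 CPM and MYCN 2.42 and 2.28 CPM. Among 27 ETS factors, 20 were on, including ELK4 at 207 and 198 CPM, EHF at 182 and 186 CPM and ETV1 at 48.9 and 49.4 CPM, whereas FLI1 and ETS1 were at the floor. Antigens normally confined to germ cells were on in 6 of 14 genes. MAGEA4 had 257 and 252 CPM, MAGEA3 94.7 and 99.3 CPM, MAGEA1 79.5 and 77.4 CPM and MAGEA6 56.2 and 61.3 CPM, and MAGEA3 and MAGEA6 are near-identical, so their split is uncertain. PRAME and SSX2 were on at 11.5 and 13.4 CPM and 7.15 and 8.29 CPM, while CTAG1B, GAGE1, PAGE4 and DDX4 were at the floor.

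Antigen presentation and innate sensing were on in 23 of 40 genes (57.5%, against 66.1% of protein-coding genes). Of the class I genes, B2M had 263 and 258 CPM and HLA-C 91.9 and 88.4 CPM, while HLA-B had 13.6 and 14.3 CPM. HLA genes vary between people and resemble each other, which can move reads between them. HLA-G had no count, and TAP2 and the activator NLRC5 were low, at 0.633 and 0.615 CPM and 0.671 and 0.398 CPM. Of 8 class II genes, only the factor CIITA was on, at 2.35 and 2.17 CPM. The DNA sensor CGAS was at the floor and its adaptor STING1 was low at 0.224 and 0.0724 CPM, whereas the RNA sensing adaptor MAVS had 123 and 118 CPM and IFIH1 10.0 and 8.90 CPM. IRF9 had no count and 93.1% of its exon bases are shared, and IRF3 had 75.3 and 78.7 CPM. The ligands PVR and CD276 were on at 125 and 124 CPM and 71.3 and 67.7 CPM, and CD274 was low at 0.820 and 1.23 CPM.

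Transcripts without a poly(A) tail bear on the library type, which the methods give as poly(A) isolation or rRNA removal. Of 13 small nuclear and related RNAs, RN7SL1 alone was on, at 11.0 and 9.48 CPM, and RN7SK, RMRP, RPPH1 and TERC had no count, although RN7SK, RPPH1 and TERC share 80% or more of their bases with another gene. Of 14 replication-dependent histone genes 6 were on, among them H2BC21 at 91.8 and 87.6 CPM and H2AC6 at 48.1 and 45.5 CPM. MALAT1 and NEAT1, nuclear RNAs whose processed ends form a triple helix, had 1162 and 1153 CPM and 1037 and 1047 CPM and held the most counts of the long noncoding RNAs. Next came ADAMTSL4-AS1, whose counts equal those of MCL1. SNHG29, NORAD and GAS5 followed close together, with 448 and 475 CPM, 456 and 456 CPM and 449 and 461 CPM. Per length the order differed, with 383 TPM for MALAT1, 318 TPM for GAS5, 291 TPM for NORAD, 178 TPM for SNHG29 and 158 TPM for NEAT1. The counts of ADAMTSL4-AS1 came to 885 TPM, but they cannot be told apart from those of MCL1.

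A list of 14 genes, made of genes the study names and of related factors added here, was on in full. HNRNPA1, the RNA-binding protein at the centre of the study, had 1836 and 1862 CPM, and HNRNPA2B1 1822 and 1839 CPM. Per length HNRNPA1 stood at 953 ± 2.04 TPM and HNRNPA2B1 at 501 ± 0.637 TPM, but with the canonical transcript as length they came to 1056 and 1079 TPM, so their order is open. HNRNPA3 had 141 and 141 CPM and the splicing repressor PTBP1 347 and 322 CPM. Among the arginine methyltransferases, PRMT1 at 213 ± 4.77 TPM exceeded PRMT5 at 31.8 ± 0.390 TPM and PRMT7 at 9.19 ± 0.0533 TPM. The stress granule genes G3BP1 and TIA1 had 286 and 281 CPM and 192 and 191 CPM. SETD2, which writes the histone mark that ZMYND11 reads, had 118 and 117 CPM, and H3-3B and H3-3A, which encode the histone variant that carries it, 861 and 875 CPM and 289 and 281 CPM.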

How the data were processed

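RNA of 22Rv1 control cells was sequenced as 2 × 150 bp pairs in 2 libraries. The authors assessed reads with FastQC 0.11.9, trimmed them with AdapterRemoval and aligned them to hg38 with STAR 2.7.9a. Whether mRNA was isolated by its poly(A) tail or by depletion of rRNA is not settled by the methods. HTSeq 0.13.5 is named in the submitters' processing notes, and its annotation, strand and overlap settings are not given in the sources used here. The deposited table holds whole-number counts for each symbol, which the authors had not normalized. Library totals set the precision of low levels, and SDs of 2 libraries are coarse.

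From the counts, CPM used the library totals and TPM the union of GENCODE 44 exons. Of 35322 symbols, a GENCODE name was found for 32852, RefSeq synonyms placed 234 more, RefSeq gave the 13 mitochondrial genes, and 2223 stayed without a length. Gene types came from RefSeq where given. Symbols were assigned to 24 gene lists with 3 more added after the values were seen, and the lists and their members were chosen with earlier results of these data known. Of 1086 list entries, 1084 matched. Exon sharing was computed from canonical transcripts on the same strand. The only test was the two-sided exact binomial test of 2 control counts against the library totals, for genes with 10 counts or more in sum, tested on simulated data. No condition was compared beyond a check of the targeted gene. Some list members are not reported here by name or in figures, but are part of the counts. Alternatives used edgeR 4.0.16 TMM factors and DESeq2 1.42.0 size factors in R 4.3.3, other thresholds, other gene lengths and each library alone. Python 3.11.15, scipy 1.17.1 and matplotlib 3.10.9 were used.

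The text names the markers, a list of genes the study names with related factors, the 20 genes highest in CPM, the protein-coding genes highest in TPM, per list and role the highest members on and some at the floor, and, among genes on with 100 counts or more in each library, the 5 widest gaps between libraries in each direction. Further list members were named where their role is described, and MCL1, ADAMTSL4-AS1 and CYP17A1-AS1 were named after their values were seen.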

Additional observations from a re-analysis of the deposited data

How the results depend on the processing

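No paired analysis was possible because the report describes 1 group, and its only test compares the 2 control libraries with each other. The count of genes on stayed between 12782 and 14820 over all alternatives, and that of protein-coding genes between 11974 and 13412. Either library alone gave 14034 and 14045 genes on. With only the 21695 symbols that had a count, 63.6% were on. Genes at the floor numbered 13627 with no count in both and 19325 with 10 counts or fewer. Of 228 list counts recomputed, 225 stayed within 1.5 times. The other 3 were those of other cell types, with 11 on at 0.5 CPM and 3 at 2 CPM, and HOX cluster D, with 1 on at 0.5 CPM. Without mitochondrial genes, the top 10 and top 100 genes held 3.63% and 14.6% of counts and ribosomal proteins 6.67%. As TPM, they held 29.3%, 44.2% and 7.4%, and the mitochondrial genome 30.4%. Mitochondrial genes took their lengths from RefSeq and the others from GENCODE, and other gene lengths were not tried for these shares. Of the genes that differed between libraries, 93 did so by 1.5-fold or more. With TMM and DESeq2 factors, the CPM of list genes came to between 0.9955 and 1.0045 times the reported values. Gene length mattered more, since the canonical transcript, an alternative chosen after the data had been seen, moved 344 of 968 TPM values by over 1.5 times, and the longest transcript 128. Leaving out genes that share 50% or more of their exon bases, also chosen afterwards, gave 67.2% of protein-coding genes on.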

Other observations

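The 3 gene lists described here were chosen after the values had been seen, so their counts support nothing and are given as description. Genes of amino acid supply were on in 46 of 47 cases. SLC3A2, the heavy chain that pairs with SLC7A5 in the transporter of large neutral amino acids, had 1625 and 1615 CPM, and SLC38A2, a glutamine carrier, had 1804 and 1769 CPM. ATF4, the factor that cells translate when amino acids run short, had 866 and 890 CPM, and its targets TRIB3, CEBPG and DDIT3 had 357 and 348 CPM, 247 and 245 CPM and 109 and 117 CPM. All 20 genes of cytosolic tRNA synthetases were on, with IARS1 at 654 and 650 CPM. ASNS, the asparagine synthetase that ATF4 induces, had 13.8 and 13.1 CPM, with 99.5% of its exon bases shared with another gene. SLC6A14 had no count.

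Genes of gut and liver were on in 19 of 49 cases (38.8%, against 66.1% of protein-coding genes). S100P had 766 and 818 CPM, MUC13, a membrane mucin, 113 and 115 CPM, SPINK1, a trypsin inhibitor, 100 and 105 CPM, and VIL1, villin of the brush border, 63.7 and 59.6 CPM. The factor HNF4G had 37.5 and 40.2 CPM, while CDX2 had no count and HNF4A was low at 0.931 and 1.63 CPM. Of 18 secreted liver proteins 4 were on, which were ALB at 367 and 372 CPM, AMBP at 13.1 and 13.4 CPM, APOH at 5.14 and 4.78 CPM and TTR at 2.94 and 3.15 CPM. APOB, HP and FGA had no count.

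Secreted peptides were on in 15 of 29 genes. APLN, the ligand apelin, had 1248 and 1217 CPM while its receptor APLNR had no count. VGF, a granule peptide precursor, had 974 and 946 CPM, ADM2 199 and 201 CPM and CALCB 31.8 and 33.6 CPM. RAMP1, the partner protein of the receptor for calcitonin gene-related peptide, had 179 and 180 CPM, while the receptor CALCRL was low at 0.671 and 0.651 CPM. Among growth factors, MDK, midkine, had 556 and 576 CPM, and 12 of 13 genes were on.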
